A study of Homo sapiens with 8 samples.

Results

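The cytosolic ribosome is built from ribosomal RNA and a fixed set of proteins, which carry the prefix RPL in the large subunit and RPS in the small subunit. Their genes are spread over the genome and are among the most active of any growing cell, since every subunit needs each protein. Their mRNAs share a start made of pyrimidines, the terminal oligopyrimidine (TOP) tract, through which mTORC1 and the RNA-binding protein LARP1 set their translation and stability. A few of the proteins have a second gene, a paralogue, whose product can take the same place in the ribosome.

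Genes of this family were described in RNA-seq libraries of UM-UC-3 and RT112, established lines grown from human bladder cancers. They were chosen by symbol alone: the letters RPL, RPLP or RPS and a number, with an optional letter A, X, Y or L and a further number, and RPSA. The rule gave 87 of the 27475 genes in the table, 53 with a large subunit name and 34 with a small subunit name. RPL41 has 2 entries (ENSG00000229117.8 and ENSG00000279483.1), so the symbols number 86, and reads can be divided between these entries. Pseudogenes and the S6 kinase genes were left out, and the table holds 0 symbols of RPL or RPS pseudogenes, whose near-identical copies can take or give reads, so that the level of single genes is uncertain to that extent. Y-linked members, 2 genes, were counted and are given no value.

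The study asked which genes depend on plasminogen activator inhibitor-1 (PAI-1). Cells of each line took up either siRNAs directed at PAI-1 (siPAI-1, a pool of 3) or scrambled siRNAs (Scr, a pool of 3), in both cases 100 pmol, and RNA was taken after 72 h. The transfection was transient, and whole cultures were measured, so a smaller share of expressing cells and less RNA per cell cannot be told apart. Each of the 4 groups has 2 libraries, called replicate 1 and 2. For the culture, 2 media are named, and which line grew in which is not stated. The study speaks of more independent experiments than a group has libraries, and the labels do not tie the libraries to them, so p-values measure only the spread between these libraries, which may be technical.

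Values are TPM, a level per transcript length that adds up to the same total in every library and can be compared between genes. Read counts were not used here. Steps in the low FPKM values placed the deepest library at 1.17 times the depth of the shallowest. Of 15 urothelial and epithelial markers, 13 reached 1 TPM in RT112 and 6 in UM-UC-3, where UPK3A was listed at 0 and the sum was 227 to 246 TPM against 12363 to 14016 TPM in RT112. All 6 mesenchymal markers reached 1 TPM in UM-UC-3, with a sum of 3255 to 3534 TPM. RT112 had 3 of these 6 at 1 TPM or more and a sum of 72.8 to 148 TPM, so the lines stood apart in these sums. Between the Scr libraries VIM, SPARC, ZEB1 and ZEB2 were called lower in RT112, while FN1 (0.79, adjusted p = 0.00248) and CDH2 (0.96, adjusted p = 0.00621, limma, log2 fold changes) were called higher. Between the siPAI-1 libraries neither FN1 (0.31, adjusted p = 0.468) nor CDH2 (-0.10, adjusted p = 0.867, limma) was called. Blood and endothelial markers summed to at most 3.4 TPM.

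The family took a large share of every library. Ribosomal protein genes made up 18.7% and 20.4% of all TPM in UM-UC-3 Scr, 19.6% in both UM-UC-3 siPAI-1 libraries, 17.3% and 17.1% in RT112 Scr, and 17.1% and 16.8% in RT112 siPAI-1. The share was higher in each UM-UC-3 library than in each RT112 library (19.6% ± 0.72 against 17.1% ± 0.19, SD, n = 4 libraries of each line). The siPAI-1 and Scr libraries overlapped in UM-UC-3 and in RT112. Between 53 and 62 of the 100 highest genes of a library belonged to the family. Genes of mitochondrial ribosomal proteins, which serve a separate ribosome, added 0.683% to 0.796%.

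Of the 87 entries, 84 were above 0 in at least 1 library and 82 averaged 1 TPM or more over the 8 libraries. Within these 82, 78 reached 400 TPM, and 68 lay between 1000 and 4000 TPM. RPS2, a small subunit protein near the mRNA entry channel, had the highest mean with 6323 TPM and ranged from 5825 TPM (UM-UC-3 siPAI-1 replicate 1) to 6710.3 TPM (RT112 Scr replicate 2). RPL34, a large subunit protein with a mean of 462 TPM, was the lowest of the 78, a 13.7-fold span. The next levels belonged to the RPL41 entry ENSG00000229117.8, RPLP1, RPL35 and RPL8, with means between 4509 and 4648 TPM. Summed over both entries, RPL41, the smallest protein of the ribosome, had 8072 and 9030.1 TPM in UM-UC-3 Scr, 8474 and 8454 TPM in UM-UC-3 siPAI-1, 5992 and 5998 TPM in RT112 Scr, and 6003 and 5788 TPM in RT112 siPAI-1, which placed it above RPS2 in all UM-UC-3 libraries. Large subunit genes at 400 TPM or more had a median of 2267 TPM (47 entries) and small subunit genes 2045 TPM (31 genes). Within a line the levels were tight, with a median coefficient of variation over 4 libraries of 4.69% in UM-UC-3 and 3.00% in RT112.

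The 4 remaining genes above 1 TPM were paralogues: RPL22L1, RPL7L1, RPL26L1 and RPS27L. A group of further paralogues was at or near 0. RPL3L, which replaces RPL3 in striated muscle, had at most 0.36 TPM, RPL39L, known from the testis, at most 0.42 TPM, and RPL10L, another testis gene, was listed at 0 in all 8 libraries. Their parents RPL3, RPL39 and RPL10 were far above them throughout, and the lowest of their values was 1300.7 TPM (RPL3 in RT112 Scr replicate 2).

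**Figure D1:**
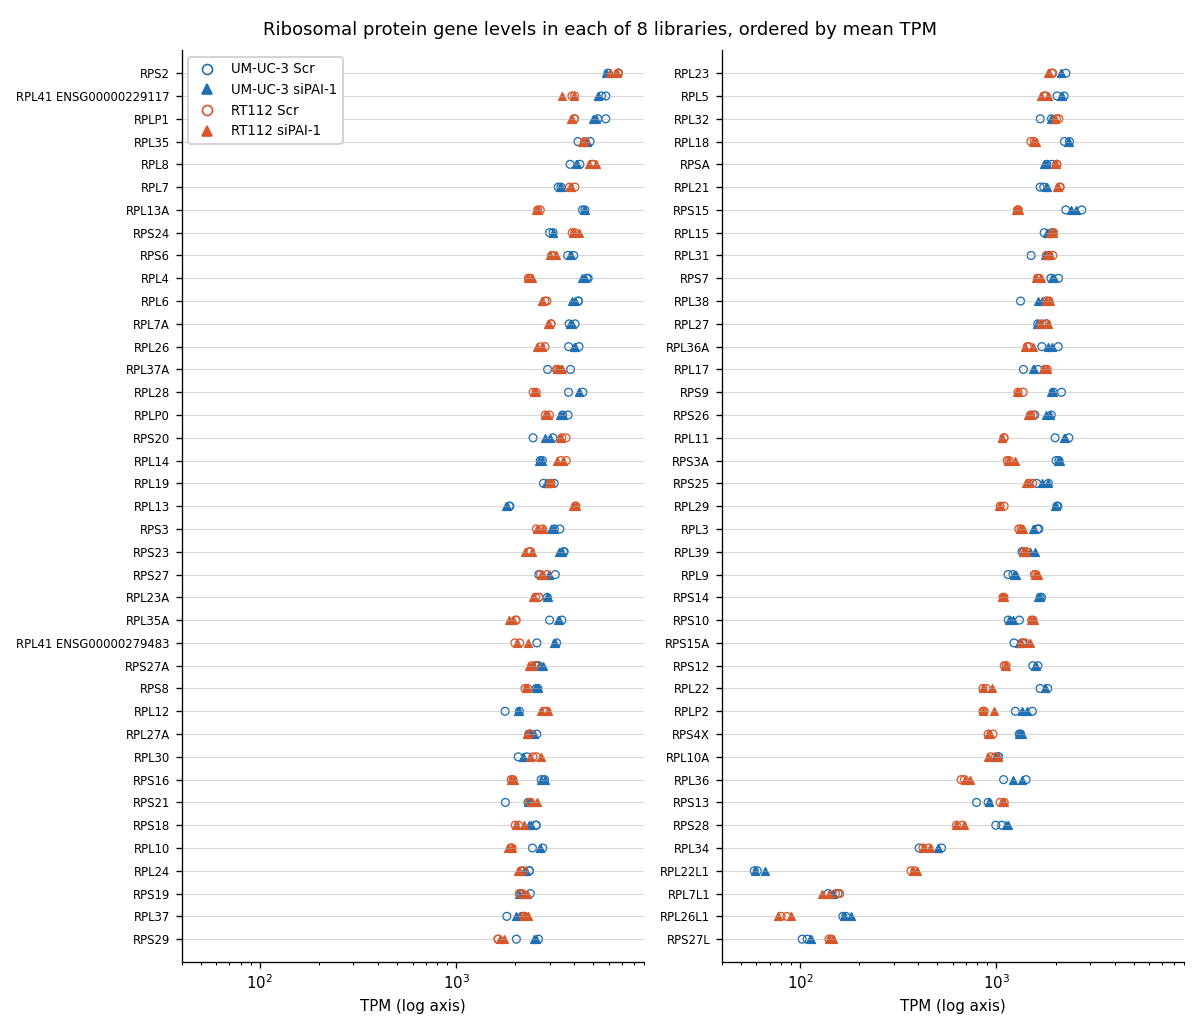
Levels of 78 of the 82 ribosomal protein entries that averaged 1 TPM or more, on a log axis, with a row for each entry and a symbol for each of 8 libraries (circles for Scr, triangles for siPAI-1, blue for UM-UC-3, orange for RT112). All but 4 entries lie above 400 TPM in their mean, circles and triangles of a line fall together, and RPL22L1, RPL13 and RPL22 show the lines apart.

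The start sites show a feature that the choice by symbol did not use. In RefSeq promoters (GRCh38.p14), a tract was sought within 10 bases of the annotated start, on the strand of the gene, as a C followed by at least 4 bases that are C or T. Entries were held for 67 members with 83 promoters, leaving out those on chromosomes 8 and Y. A tract lay within the window in 65 of the 83 promoters (78.3%), against 33.4% of 34878 other promoters and 31.8% of 85 promoters of mitochondrial ribosomal proteins. The annotated start itself was a position set after the first result was seen. Counted from there, whatever the base before it, a tract was found in 56.6% of the members' promoters, 3.95% of the others and 7.06% of the mitochondrial group. The windows of 3 paralogue pairs, of RPL7L1 and of RPL13 and RPL11, which differed by about 2-fold between the lines, are shown, 10 bases before to 20 bases from the start. Capitals mark the tract from the start onward, and any C or T before it is in small letters.
RPL22 (chr1:6199576-6199605, minus strand): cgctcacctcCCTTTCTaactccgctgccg
RPL22L1 (chr3:170870176-170870205, minus strand): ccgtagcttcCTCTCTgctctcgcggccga
RPL26 (chr17:8383174-8383203, minus strand): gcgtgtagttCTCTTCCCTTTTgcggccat
RPL26L1 (chr5:172958719-172958748, plus strand): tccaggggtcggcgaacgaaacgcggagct
RPS27 (chr1:153990752-153990781, plus strand): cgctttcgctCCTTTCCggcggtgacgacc
RPS27L (chr15:63157458-63157487, minus strand): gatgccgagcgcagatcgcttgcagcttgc
RPL7L1 (chr6:42879606-42879635, plus strand): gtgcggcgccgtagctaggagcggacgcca
RPL13 (chr16:89560672-89560701, plus strand): gggccgcttcCTTTCCgctcggctgttttc
RPL11 (chr1:23691796-23691825, plus strand): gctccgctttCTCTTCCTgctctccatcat
The low paralogues RPL26L1, RPS27L and RPL7L1 had no tract in any of their windows, while RPL22L1 had one at its start, as had RPL22, RPL26 and RPS27. RPL26L1 has 2 promoters, RPL13 has 3 and RPL11 has 2, of which 1 each is shown. A match describes these letters only, and a window without one says only that the letters are not in it.

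Before the siRNA comparison, a difference between the Scr replicates of UM-UC-3 has to be named. In UM-UC-3 Scr replicate 1, 67 of the 82 genes were lower than in Scr replicate 2, with a median difference of -0.13 in log2(TPM + 0.1), while the median over all 12803 genes that averaged 1 TPM or more was 0.05. The siPAI-1 replicates of this line differed by a median of 0.005, and the replicates of RT112 by 0.03 (Scr) and 0.04 (siPAI-1). In UM-UC-3 the siPAI-1 libraries lay between the Scr libraries. Their median differences were 0.07 and 0.07 from Scr replicate 1, and -0.05 and -0.05 from Scr replicate 2. Which Scr library was the unusual one was not tested. The difference in UM-UC-3 Scr went with length. Members with under 400 coding bases had a median of -0.21 (27 genes), those from 400 to under 600 bases -0.14 (31 genes) and longer ones -0.02 (23 genes). Among other genes that averaged 100 TPM or more the medians were -0.06 (190 genes), 0.03 (228 genes) and 0.04 (1249 genes). The members furthest apart were RPL38 (-0.44), RPL37A (-0.39) and RPS21 (-0.38), all of them in the shortest class. In RT112 siPAI-1 short genes leaned the other way, with a median of 0.07 for members under 400 bases and 0.08 for the 190 other genes. Without UM-UC-3 Scr replicate 1, the log2 fold change between siPAI-1 and Scr changed sign for 39 of the 84 members tested. Without Scr replicate 2 it did so for 14. Such changes were not limited to this line, since 33 of 84 members changed sign in RT112 without siPAI-1 replicate 1.

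**Figure D2:**
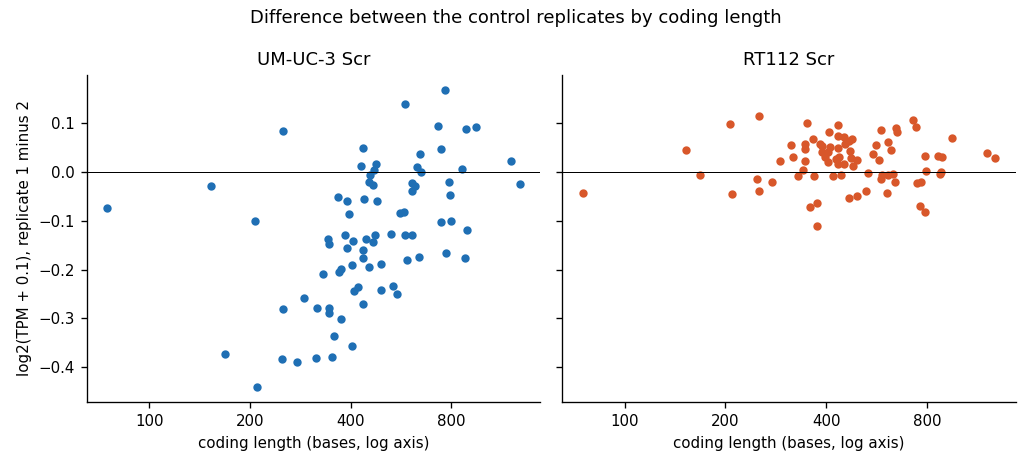
Difference in log2(TPM + 0.1) between Scr replicate 1 and replicate 2 for 81 members with an annotated coding length, in UM-UC-3 (left) and RT112 (right), against coding length in bases on a log axis. In UM-UC-3 most points lie below 0 and the lowest points are short genes, while RT112 points lie near 0 at every length.

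No ribosomal protein gene passed the test between siPAI-1 and Scr. At an adjusted p under 0.05, limma called 0 of the 84 tested members in UM-UC-3, where the background was 0% of 18528 genes, and 0 of 84 in RT112, where it was 0% of 18437 genes. At an unadjusted p under 0.05, 1 member in UM-UC-3 and 1 in RT112 passed, against 6.01% and 5.77% of all genes. The model over both lines (background 0% of 20274 genes) and the interaction of siRNA and line (background 0%) also called 0 members, with 2 and 1 at an unadjusted p under 0.05 against 4.98% and 6.76% of all genes. The shares of members were below the background in these fits. Without UM-UC-3 Scr replicate 2, 24 members of that line had an unadjusted p under 0.05, of which 22 were higher and 2 lower (28.6%, against 10.6% of all genes), and the interaction had 21 (25%, against 9.8%), so here the shares were above the background, with 0 members called after adjustment.

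The differences were small as well as not called. For the 82 members that averaged 1 TPM or more, the log2 fold changes of UM-UC-3 lay between -0.12 and 0.20. Those of RT112 lay between -0.21 and 0.09. All 82 intervals (95%) lay within 2-fold in each line. A change of 0.5 on the log2 scale lay outside the interval of 81 genes in UM-UC-3 and of all 82 in RT112. The medians of the tested members were 0.01 and -0.01, beside -0.01 and 0.01 for all genes tested. In UM-UC-3 the sign of the median depended on the control library. Set against Scr replicate 1, the siPAI-1 libraries had 61 and 58 of 82 members higher, and against Scr replicate 2 they had 19 and 17. Without Scr replicate 1 the median was -0.05, and without Scr replicate 2 it was 0.07. TPM show shares of a library, so a rise or fall of all mRNA alike would not be seen.

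The genes at the ends of the order show the scale of these differences. In UM-UC-3, RPS21 and RPL39 were among the 3 largest positive values, and RPLP1, RPS18 and the RPL41 entry ENSG00000229117.8 had the largest negative ones. RPL39, a short protein that lines the exit tunnel, stood at 1349.7 and 1377 TPM in Scr, then at 1576 and 1477 TPM after siPAI-1. Both siPAI-1 libraries lay above both Scr libraries (log2 fold change 0.16, SE 0.057, unadjusted p = 0.0359, adjusted p = 0.810, limma). In RT112 the Scr values of 1425 and 1381 TPM overlapped with the siPAI-1 values of 1422 and 1374 TPM. The difference between the lines in this effect was -0.17 with unadjusted p = 0.0411 and adjusted p = 0.716 (limma). RPS21, a small subunit protein, stood in UM-UC-3 at 1781 and 2321 TPM in Scr, then at 2333 and 2343 TPM after siPAI-1. Its siPAI-1 libraries lay close to Scr replicate 2, and Scr replicate 1 was lower than the other 3 libraries. The log2 fold change of RPS21 was 0.20, and 0.01 without that library, while that of RPL39 was 0.15 without it.

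In RT112, RPL7L1, the RPL41 entry ENSG00000229117.8 and RPL35A were at the lower end, and the RPL41 entry ENSG00000279483.1, RPL36 and RPLP2 at the upper end. The entries of RPL41 had values of opposite sign, -0.09 and 0.09, neither of them called, and both signs turned without siPAI-1 replicate 2. RPL7L1, a nucleolar relative of RPL7 that acts in ribosome assembly, stood at 152 and 159 TPM in Scr, then at 129.5 and 140.2 TPM after siPAI-1. The groups did not overlap (log2 fold change -0.21, SE 0.066, unadjusted p = 0.0292, adjusted p = 0.838, limma). In UM-UC-3 the Scr values of 156 and 139 TPM lay on either side of the siPAI-1 values of 147 and 146.5 TPM. Over both lines RPL6 (-0.08, unadjusted p = 0.0233) and RPL24 (-0.07, unadjusted p = 0.0259), both large subunit proteins, had unadjusted p under 0.05, each with adjusted p = 0.895 (limma).

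**Figure D3:**
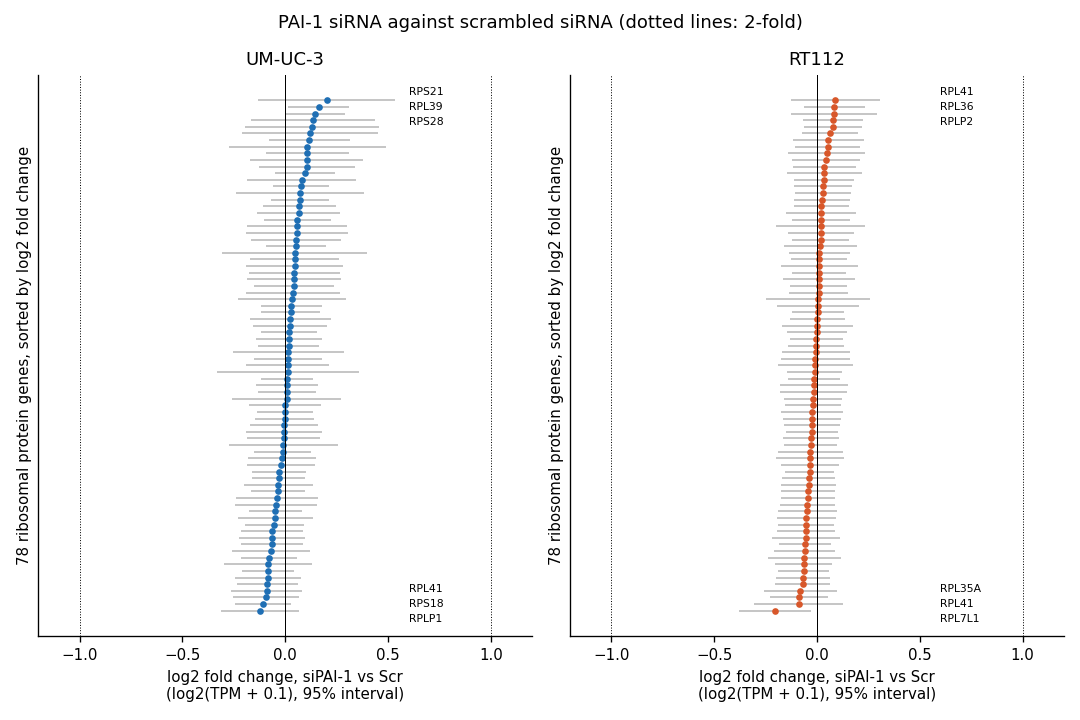
Log2 fold change of siPAI-1 against Scr on log2(TPM + 0.1) for 78 of the 82 ribosomal protein entries in UM-UC-3 (left) and RT112 (right), sorted within each line, with 95% intervals as grey bars, dotted lines at 2-fold, and the 3 highest and 3 lowest of the entries drawn named in order at the right. Values stay between -0.12 and 0.20 in UM-UC-3 and between -0.21 and 0.09 in RT112, and no bar reaches a dotted line.

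Groups within the family gave the same picture. Of the 4 P stalk proteins (RPLP0, RPLP1, RPLP2 and RPL12), which recruit translation factors, 0 were called in either line. Their log2 fold changes lay between -0.12 (RPLP1 in UM-UC-3) and 0.10 (RPL12 in UM-UC-3). Without UM-UC-3 Scr replicate 1 all 4 were negative in that line, between -0.19 (RPLP1) and -0.02 (RPL12). For this and the following groups, values without UM-UC-3 Scr replicate 2 are not given. RPL5 and RPL11, which form the 5S RNP with 5S rRNA and hold the p53 regulator MDM2 when assembly fails, had log2 fold changes of 0.02 and 0.04 in UM-UC-3, beside -0.01 and -0.04 for RT112. Without UM-UC-3 Scr replicate 1, RPL5 and RPL11 had -0.04 and -0.07 in UM-UC-3. A list of 11 proteins of this family mutated in Diamond-Blackfan anaemia, an inherited failure of red cell production, was also read. The list was set for this report and does not hold every member tied to the disease. Its medians were 0.02 in UM-UC-3 (-0.07 without Scr replicate 1) and -0.03 for RT112, with 0 called. Of 8 proteins at the exit tunnel 0 were called, with 1 (RPL39 in UM-UC-3) at an unadjusted p under 0.05. RPS6, the substrate of S6 kinase, had log2 fold changes of -0.01 and 0.02 in the lines in this order, RPSA, also known as the laminin receptor, -0.06 and -0.03, RPS27A, made as a fusion with ubiquitin, 0.05 and -0.05, and RPS4X, the X-linked copy, 0.01 and -0.02.

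Genes outside the symbol rule were read from the same fits. FAU, which encodes a ribosomal protein fused to a ubiquitin-like protein, and RPL36AL were not called in either line. Of 16 translation factors and other TOP mRNAs tested, 36 genes of ribosome assembly and rRNA synthesis, 13 genes of the mTORC1, S6 kinase and LARP1 pathway, and 78 entries of mitochondrial ribosomal proteins, limma called 0 by siRNA. At an unadjusted p under 0.05 the first list had 0 in each line, the mTORC1 list had 1 (lower, in UM-UC-3), and the mitochondrial list had 2 higher and 7 lower in UM-UC-3, 2 higher and 2 lower in RT112. The assembly genes had 4 lower and 0 higher at an unadjusted p under 0.05 in UM-UC-3 and 5 lower and 0 higher in RT112, where 6.01% and 5.77% of all genes passed in either direction. In UM-UC-3, 14 of the 36 had positive and 22 negative values (median -0.03). In RT112, 32 of the 36 had negative values (median -0.10, beside 0.01 for all genes tested).

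The lines themselves differed in many members. These comparisons rest on separate libraries, Scr in the one and siPAI-1 in the other, while cell type, culture medium and any other property of a line cannot be told apart. In Scr, 13 of the 84 members tested were higher and 40 lower in RT112 than in UM-UC-3 (63.1%), where the background was 51.6% of 19201 genes, 25.3% higher and 26.3% lower. In siPAI-1, 16 were higher and 46 lower (73.8%), with a background of 52.2% of 19359 genes, 26.2% higher and 26.1% lower. Among genes that averaged 1 TPM or more, 64.6% of 82 members and 64.5% of all genes were called in Scr. In siPAI-1 these shares were 75.6% and 65.4%. Of 277 other genes that averaged 400 TPM or more, 72.6% and 76.5% were called, above the shares of the members tested. These were 101 higher and 100 lower in Scr and 105 higher and 107 lower in siPAI-1. The medians of the members were -0.18 and -0.21, beside -0.06 and -0.02 for all genes tested. Without RT112 Scr replicate 1 or 2 the Scr counts fell to 14 and 13, and leaving out either siPAI-1 library of UM-UC-3 took the siPAI-1 count to 19 each time. The share of members was then below that of all genes, at 16.7% and 15.5% against 30.9% and 30.3% in Scr, and 22.6% against 28.0% and 28.3% in siPAI-1. Without UM-UC-3 Scr replicate 1 the Scr count was 40, 7 higher and 33 lower (47.6%, against 34.4% of all genes), and the median -0.24. Without a trend in the moderation of variances by limma, 38.1% and 41.7% of members were called against 45.2% and 45.8% of all genes, also below the background.

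Largely the same members differed in both sets of libraries. Of the 53 members called in Scr, 52 (98.1%) were also called in siPAI-1, which was 83.9% of the 62 called there. Among these 52, 13 were higher and 39 lower in both, with 0 in opposite directions. The overlap was not counted for all genes, of which 51.6% (Scr) and 52.2% (siPAI-1) were called. It is therefore not shown to be particular to the family. Over the 8 libraries, 20 of the 82 members that averaged 1 TPM or more were higher in every RT112 library than in any UM-UC-3 library (24.4%) and 44 were lower (53.7%). The background was 73.9% of 12803 such genes without overlap, 36% higher and 37.9% lower. Across the 82 genes the line differences in Scr and siPAI-1 had a Pearson correlation of 0.991. It is given as a description, since genes share their libraries, and no value for all genes was computed.

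**Figure D4:**
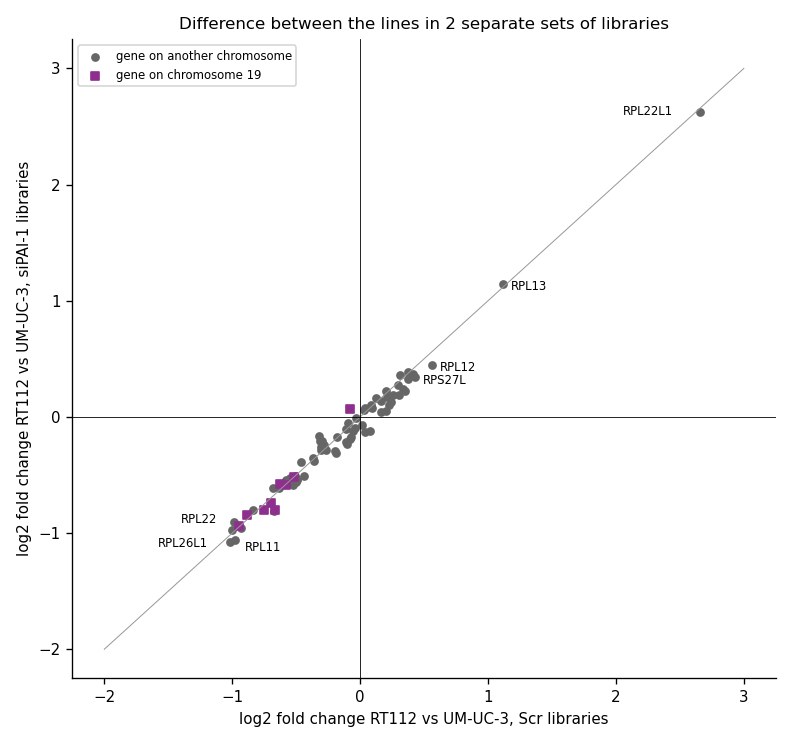
Log2 fold change of RT112 against UM-UC-3 in the Scr libraries (horizontal) and in the siPAI-1 libraries (vertical) for 78 of the 82 ribosomal protein entries, with the line of equal values in grey and genes on chromosome 19 as purple squares. Points lie along the line, RPL22L1 (2.66 and 2.62) and RPL13 (1.12 and 1.15) are furthest to the upper right, and 8 of the 9 squares lie below 0 on both axes.

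RPL22L1 differed most. It encodes a paralogue of RPL22, a large subunit protein that binds RNA and is known to hold down RPL22L1. RPL22L1 had 58.5 and 60.6 TPM in UM-UC-3 Scr, 66.0 and 58.9 TPM in UM-UC-3 siPAI-1, 384 and 367 TPM in RT112 Scr, and 394 and 375 TPM in RT112 siPAI-1. All RT112 values were above all UM-UC-3 values, with log2 fold changes of 2.66 (SE 0.053, adjusted p = 0.000259, limma) in Scr and 2.62 (SE 0.075, adjusted p = 0.000336) in siPAI-1. RPL22 went the other way, with 1668, 1826, 1758 and 1768 TPM in the UM-UC-3 libraries (Scr replicates 1 and 2, then siPAI-1 replicates 1 and 2, an order kept for the values of other genes) and 888, 854, 948 and 852 TPM in RT112. Again the lines did not overlap, with log2 fold changes of -1.003 (SE 0.061, adjusted p = 0.000891) and -0.97 (SE 0.063, adjusted p = 0.00106, limma). The call in Scr was lost without RT112 Scr replicate 2 (adjusted p = 0.0511, limma). RPL22L1 made up 3.36% ± 0.19 of the TPM of the pair in UM-UC-3 and 30.05% ± 0.51 in RT112 (SD, n = 4 libraries of each line), and the sum of the pair was 1816 ± 66 TPM in UM-UC-3, against 1266 ± 56 TPM in RT112.

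**Figure D5:**
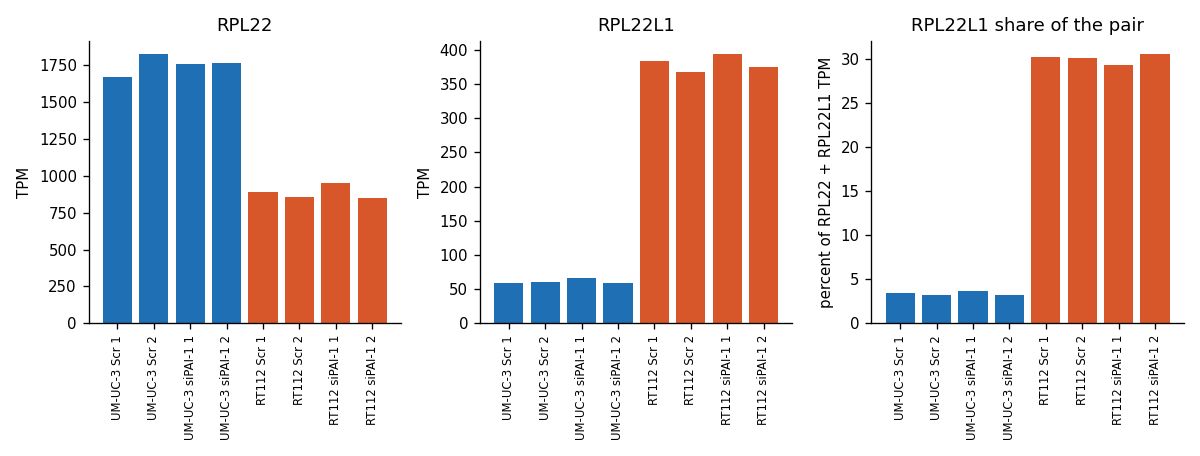
Bars for each of 8 libraries show TPM of RPL22 (left), TPM of RPL22L1 (middle) and the percent of their summed TPM that RPL22L1 contributed (right), with UM-UC-3 in blue and RT112 in orange and all axes from 0. RPL22 lies between 1668 and 1826 TPM in UM-UC-3 and between 852 and 948 TPM in RT112, and the RPL22L1 share lies near 3% in the first and near 30% in the second.

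No other pair shifted as far. RPL26L1 fell in RT112 together with its parent RPL26, with 171, 165, 183 and 168 TPM in UM-UC-3, against 85.7, 80.2, 89.8 and 77.1 TPM in RT112 (log2 fold changes -1.02 and -1.07, adjusted p = 0.000837 and 0.00230, limma), where RPL26 had -0.52 and -0.59. The call of RPL26L1 in siPAI-1 was lost when either siPAI-1 library of UM-UC-3 was left out (adjusted p = 0.0790 and 0.0706, limma). Its part in the pair was 4.13% ± 0.28 in UM-UC-3 and 2.97% ± 0.13 in RT112. RPS27L, a p53 target, was higher in RT112 by 0.43 in Scr (adjusted p = 0.00538) and 0.34 in siPAI-1 (adjusted p = 0.00809, limma), and made up 3.60% ± 0.36 of its pair with RPS27 in UM-UC-3 and 4.92% ± 0.26 in RT112. RPL7L1 was 4.18% ± 0.14 of its pair with RPL7 in UM-UC-3 and 3.63% ± 0.31 in RT112. Its own difference between the lines was 0.08 in Scr and -0.12 in siPAI-1 (adjusted p = 0.460 and 0.156, limma). RPL36AL, found outside the symbol rule, made up 19.6% ± 0.79 and 21.7% ± 0.10 of its pair with RPL36A.

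Called differences of at least 2-fold were few. There were 5 in Scr, 2 higher and 3 lower, where 16.2% and 15.9% of all genes were higher or lower by as much, and 5 in siPAI-1, also 2 higher and 3 lower, with 17% and 15.6%. Beside RPL22L1, RPL26L1 and, in Scr, RPL22, they included RPL13 and, in siPAI-1, RPL11. RPL13, a large subunit protein, had 1878, 1864, 1823 and 1797 TPM in UM-UC-3, against 4051, 4065, 3946 and 4066 TPM in RT112. It was higher in every RT112 library, by 1.12 (SE 0.034, adjusted p = 0.000313) in Scr and 1.15 (SE 0.035, adjusted p = 0.000350, limma) in siPAI-1. RPL11 had 1989.7, 2340.1, 2217 and 2231 TPM in UM-UC-3, against 1093, 1094, 1069.5 and 1063 TPM in RT112. The lines did not overlap, with log2 fold changes of -0.98 in Scr (adjusted p = 0.00216) and -1.06 in siPAI-1 (adjusted p = 0.000349, limma). Its partner in the 5S RNP, RPL5, was lower by less, -0.26 and -0.29 (adjusted p = 0.0205 and 0.0137, limma).

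Just under 2-fold were RPL4 (-0.99 and -0.90), RPS15 (-0.94 and -0.94) and RPL29 (-0.94 and -0.95), called in both sets.

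The P stalk and Diamond-Blackfan groups held members of both directions between the lines, while RPL5 and RPL11 of the 5S RNP were both lower in RT112. Of the P stalk, RPLP0 (-0.30), RPLP1 (-0.46) and RPLP2 (-0.68) were lower in RT112 Scr and RPL12 (0.56) was higher, all 4 called in both sets. Among other genes that averaged 400 TPM or more, 72.6% (Scr) and 76.5% (siPAI-1) were called. Of the 11 Diamond-Blackfan genes, 3 were higher (RPS24 and RPS10 among them) and 5 lower in Scr (RPL5, RPL11, RPL26, RPL35A and RPS7), where 25.3% and 26.3% of all genes were. RPS19, the gene most often mutated in the disease, had -0.08 and 0.06 with adjusted p = 0.379 and 0.282 (limma). In siPAI-1, RPS26 was also called lower (-0.31, beside -0.19 in Scr with adjusted p = 0.221, limma). RPL35A was the lowest of the others with -0.67 and -0.81, RPS24 had 0.37 and 0.39, RPS10 had 0.31 and 0.36, and RPS7 had -0.28 and -0.24. RPL15 had 0.09 and 0.07 with adjusted p = 0.267 and 0.144 (limma). RPS6 (-0.31 and -0.29) and RPS4X (-0.50 and -0.53) were lower in RT112 in both sets. RPSA (0.16, adjusted p = 0.0215) and RPS27A (-0.17, adjusted p = 0.0305, limma) were called in siPAI-1 only, and a difference of the effects between the sets was not called for either.

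Members on chromosome 19 went the way of the other genes there, a pattern that was sought after the values were seen. Chromosome 19 holds 12 of the members by RefSeq (GRCh38.p14), among them RPL13A, RPL18, RPL28, RPL36, RPS9, RPS15, RPS16, RPS19 and RPS28. Of these, 11 were lower in RT112 and 0 higher, in Scr and in siPAI-1, with RPS19 the exception and medians of -0.64 and -0.66. The other genes of chromosome 19 that averaged 1 TPM or more went the same way, with 60.2% of 859 lower, 17.3% higher and a median of -0.67 in Scr, and 56.6%, 17.2% and -0.63 in siPAI-1. FAU, outside the symbol rule and on another chromosome, had 870 ± 68.6 and 847 ± 20.8 TPM in UM-UC-3 and RT112 (SD, n = 4) and was not called. It is a single gene, and of the 3 ribosomal protein genes read outside the rule, 1 was called lower in RT112 in both sets. On chromosomes 3, 1 and 17 members and neighbours had medians of opposite sign in Scr. On chromosome 3 these were 0.11 for 8 members against -0.29 for 633 other genes. On chromosome 1 they were -0.26 for 5 members, 4 of them lower, against 0.07 for 1149 other genes. On chromosome 17 they were -0.03 for 6 members against 0.01 for 701 other genes. In siPAI-1 the chromosome 17 medians had the same sign (-0.08 against -0.01). Those of chromosome 3 (0.06 against -0.255) and chromosome 1 (-0.29 against 0.10) were again opposite. Medians had the same sign in both sets on chromosome 12 (-0.50 against -0.20 in Scr) and on chromosome 11 (-0.20 against -0.09 in Scr). Further chromosomes were not compared singly. Away from chromosome 19, 29 of 70 members were lower (41.4%) and 13 higher (18.6%) in Scr, where other genes had 31.0% lower and 33.4% higher, and the medians were -0.08 and 0.01. In siPAI-1, 35 of the 70 were lower and 16 higher (22.9%), where other genes had 31.6% lower and 34.1% higher, with medians of -0.14 and 0.01. The part of the chromosome in the result was not tested.

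Related genes were read in the same comparisons of the lines. Genes of mitochondrial ribosomal proteins, 78 entries, had 33 higher and 14 lower in RT112 Scr and 39 higher and 16 lower in siPAI-1, with medians of 0.25 and 0.31. The background was 51.6% called in Scr (25.3% higher, 26.3% lower) and 52.2% in siPAI-1 (26.2% higher, 26.1% lower). For genes that averaged 1 TPM or more it was 64.5% and 65.4%. These shares are the background of the lists that follow as well. Among the mitochondrial ribosomal genes MRPS6 (1.303) was the furthest up and MRPL34 (-1.296) and MRPL53 (-1.21) the furthest down in Scr. Translation factors and other TOP mRNAs had 4 higher and 9 lower of 16 in Scr (median -0.49), led by NAP1L1 (-1.296), a histone chaperone, EIF3F (-1.10), a subunit of initiation factor eIF3, and EIF4B (-0.98), a cofactor of the initiation helicase. In siPAI-1 the list had 3 higher and 10 lower (median -0.45). Of the 36 assembly genes 16 were higher and 9 lower in Scr (median 0.11), and 14 were higher and 10 lower in siPAI-1, where the median had the other sign (-0.03), with RRP1B (1.39), NOP14 (1.33) and RRS1 (0.95) the furthest apart in Scr. In the mTORC1, S6 kinase and LARP1 list 2 were higher and 3 lower of 13 in Scr and again in siPAI-1, a share below the background. EIF4EBP1, the translation repressor that mTORC1 inactivates, had 158 ± 5.82 TPM in UM-UC-3, against 60.5 ± 5.51 TPM in RT112 (SD, n = 4), -1.33 in Scr with adjusted p = 0.00137 (limma). RPS6KB2 (0.86) and EIF4EBP2 (0.78) were higher in RT112. Of 10 snoRNA host genes listed, 3 were found in the table, and SNHG8 (1.197) was higher and furthest apart.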

How the data were processed

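RNA-seq values of 8 libraries were used. The deposited tables give TPM and, in a second table, FPKM for each gene with 2 decimals, on hg38 (GRCh38). The submitters' processing notes name STAR 2.5.0 and RSEM 1.2.25, while the methods name cutadapt, STAR, featureCounts and DESeq2, so which program made the deposited TPM and FPKM is not settled. The 92 spike-in entries were left out. Since counts were not used here, tests ran in limma 3.58.1 (R 4.3.3) with lmFit and a trended eBayes on log2(TPM + 0.1), two-sided, a scale that understates the change of low genes, with Benjamini-Hochberg adjustment over all genes above 0 in at least 1 library fitted. A call is an adjusted p under 0.05. Each within-line and between-line comparison used its 4 libraries, and the fits over both lines and of the interaction used all 8. The code was tested on simulated data. Shares, medians and figures were computed in Python 3.11.15 (matplotlib 3.10.9, pandas 2.3.3, numpy 2.4.6).

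Coding lengths came from GENCODE (GRCh37 lift of release 44), by gene identifier, and chromosomes and promoters from RefSeq (GRCh38.p14), where 90.2% of the 12803 genes averaging 1 TPM or more had a match. Depth was compared on FPKM steps, searched between 20 and 45 M reads. The members and gene lists were chosen with earlier results of these data known. Named genes were members called with at least 2-fold, the 5 highest and, of those above 0, the 5 lowest by mean TPM, the 3 highest and 3 lowest siRNA fold changes in each line among members averaging 1 TPM or more, the paralogue pairs, P stalk, 5S RNP and Diamond-Blackfan lists, RPS6, RPSA, RPS27A, RPS4X and FAU, and of other lists genes called by siRNA and the 3 furthest apart between lines. Others were named after their values were seen, and some genes under this rule are not reported here. Replicate numbers were checked for pairing by the correlation of deviations from group means, which was between -0.043 and 0.044. Equal numbers thus showed no shared deviations over the 12803 genes, which cannot tell whether they share an experiment. Alternatives were other pseudocounts (1 and 0.01 TPM), a filter at a mean of 1 TPM, FPKM, other scalings, eBayes without trend, a replicate block, a joint fit and each library left out.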

Additional observations from a re-analysis of the deposited data

How the results depend on the processing

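The siRNA comparisons called 0 members under every alternative, with and without the replicate block, and with each library left out in turn. Over all genes the interaction of siRNA and line called 0, 7 without trend in eBayes, and up to 123 with a library left out (without RT112 siPAI-1 replicate 2); the cause was not tested. For the lines, the 53 members called in Scr and 62 in siPAI-1 became 32 and 35 without trend in eBayes, below the shares of all genes, and ran from 13 to 42 and from 19 to 49 with a library left out, where fewer samples enter the fit; the cause of the first drop was not tested. A replicate block gave 55 and 60 members, and equal replicate numbers showed no shared deviations. Over all genes the block took the calls from 9909 to 9387 in Scr and from 10108 to 9365 in siPAI-1. Other settings gave 47 to 58 in Scr and 60 to 66 in siPAI-1. Members off chromosome 19, an alternative chosen after seeing the data, gave 42 and 51.

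The median of the members between the lines in Scr was -0.18 and ran from -0.24 to -0.11 with a library left out, being -0.11 without UM-UC-3 Scr replicate 2. In UM-UC-3 the siRNA median of 0.01 ran from -0.05 to 0.07 and that of RT112, -0.01, from -0.03 to 0.00. Without the 10 highest other genes the members took 21.07% of TPM (UM-UC-3) and 18.05% (RT112), and without mitochondrial genes 17.84% (RT112), because the sum is smaller by construction.

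Members above 0 in RT112 went from 37 to 18 of 84 without siPAI-1 replicate 1. Among the 14 siRNA values followed singly, 3 changed sign with a library left out, all in RT112. The RPL41 entry ENSG00000229117.8 ran from -0.1868 to 0.0061 and ENSG00000279483.1 from -0.0051 to 0.1808, both turning without siPAI-1 replicate 2. RPLP2 ran from -0.0151 to 0.1804, turning without siPAI-1 replicate 1. Among members named for at least 2-fold between the lines, RPL22 in Scr (adjusted p = 0.0511 without RT112 Scr replicate 2) and RPL26L1 in siPAI-1 (0.0790 and 0.0706 without UM-UC-3 siPAI-1 replicate 1 and 2, limma) lost the call. Precision is limited by 2 libraries in each group.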
